A study of Mus musculus with 12 samples.

Results

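The genes described here are 10 neighbours of Dpagt1 on mouse chromosome 9, Sc5d, Ift46, Fxyd6, Tex12, Spesp1, Hacd3, Trip4, Dapk2, Aph1c and Gm19299, in fully grown oocytes. They were chosen by their FPKM in these libraries, because the 2 groups that carry a floxed Dpagt1 allele differed from the 2 groups that do not. The 10 genes were taken from 24255 in the table, of which 11233 reached 1 FPKM somewhere among the libraries and could be tested, all 10 among them. FPKM is a count of sequenced fragments scaled to the length of the transcript and the depth of the library. Since these values chose the genes, the floxed difference of each gene is a description and carries no test here. Calls of the 10 genes in that contrast, and in the comparisons it is made of, are counted beside the share of all genes called, and nothing is read from them. The tests reported are of differences that the choice did not use.

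RNA-Seq was done on 12 libraries of 20 oocytes each, 3 per group, from C57BL/6 females aged 3 weeks, taken 46 h after 5 IU of PMSG, the hormone that stimulates follicle growth. WT oocytes came from wild-type females, and MUT oocytes from females with the D166G point mutation that ENU mutagenesis produced in Dpagt1. GcKO oocytes had the genotype Dpagt1F/F Gdf9CRE/+, in which Cre acts in the oocyte. AmcKO oocytes had the genotype Dpagt1F/F Amhr2CRE/+, in which Cre acts in granulosa cells, so that the oocyte itself keeps the floxed allele. GcKO and AmcKO thus share the floxed allele and a Cre driver of some kind, and no library here had the floxed allele without Cre. The floxed allele, the presence of a Cre and whatever else these crosses share cannot be told apart. The labels do not say whether the 3 libraries of a group came from separate females, so the tests measure the spread between these libraries, which may be technical.

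Genes that lie close together on a chromosome are inherited together until recombination separates them. A targeted allele that is bred from one stock into another therefore travels with the stretch of chromosome on either side of it, and that stretch can differ from the recipient's in the sequence and activity of its genes. Geneticists compare carriers with non-carriers of such an allele with this in mind, even after many generations of backcrossing. The labels give C57BL/6 for all 4 groups, and the files hold no genotypes, so whether the sequence around Dpagt1 differed between the groups was not tested.

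Dpagt1 encodes the enzyme of the first step of N-linked glycan assembly and lies at chr9:44326843-44333600 (mm10). Its own level could not check the labels. Dpagt1 was listed at 0 in the 3 WT and the 3 AmcKO libraries and in GcKO replicates 1 and 3. GcKO replicate 2 had 0.366 FPKM, and the MUT libraries had 0.878, 0.408 and 0.985 FPKM, which is 1.20 to 2.41 estimated fragments and under the level at which a gene was tested.

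The table holds no read counts, but low values fell close to whole multiples of the value of 1 fragment (70.5 to 77.0% within 0.15 of a whole number, against 30.0% for evenly spread values). This step, the value of 1 fragment, was set from the same low values. Values near 1 fragment therefore fit in part by construction, and the 30.0% is no strict baseline. By this step 1 fragment of a transcript of 1 kb was worth most in WT, at 1.71 to 1.99 FPKM, and less elsewhere, at 0.752 to 0.902 FPKM for MUT, 0.674 to 1.13 for GcKO and 0.909 to 1.12 for AmcKO. A value of 0 therefore says least in WT. The FPKM of all genes added up to 1167362 to 1226005 for WT libraries and 883256 to 1107925 for AmcKO, but to 589617 to 611597 for MUT and 482314 to 684212 for GcKO. Levels of genes in WT and AmcKO were thus set against a larger total than in MUT and GcKO, and differences between WT and MUT, or between GcKO and AmcKO, depend on the scaling.

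The oocyte markers were all detected, 12 of 12. Of 14 granulosa cell markers, 8 could be tested, and Foxl2, Amh and Amhr2 were listed at 0 in all 12 libraries. The granulosa markers together reached 166 to 174 FPKM for WT and 57.2 to 82.7 FPKM for MUT, beside 62.5 to 107 FPKM for GcKO and 91.2 to 129 FPKM for AmcKO. Most of this was Esr2, and without it WT had 17.6 to 23.1 FPKM, MUT 17.8 to 31.3, GcKO 14.7 to 28.8 and AmcKO 11.7 to 22.7. The ranges without Esr2 overlap between floxed groups and the others. By the floxed contrast 0 of the 8 tested granulosa markers were called by limma, and 2 had an unadjusted p under 0.05. Over all tested genes these shares were 0.463% and 11.4%. In such bulk libraries, fewer cells of a type and less RNA per cell cannot be told apart.

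The sequences ahead of 3 starts are shown because they belong to the genes with the most extreme contrast between groups. Spesp1 and Gm19299 are the pair that come nearest to being present in one set of groups and absent in the other. Trip4 starts back to back with Csnk1g1, a gene that was not among the 10 and that was also higher in the floxed groups. The sequences are those of RefSeq on GRCm38.p6, the assembly of mm10, and are the reference and not the sequence of these mice. Capitals mark matches on either strand to the motif TATAAA, to the motif CCAAT, to the motif GGGCGG and to the motif TAATTG, with no overlap between matches in these windows. The Spesp1 window is chr9:62282180-62282429, minus strand, the 250 bases before its start. The Gm19299 window is chr9:67133311-67133560, plus strand, also 250 bases. The third is the whole 215 bases between the Trip4 and Csnk1g1 starts, chr9:65908795-65909009, printed on the minus strand, the strand of Trip4.

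Spesp1: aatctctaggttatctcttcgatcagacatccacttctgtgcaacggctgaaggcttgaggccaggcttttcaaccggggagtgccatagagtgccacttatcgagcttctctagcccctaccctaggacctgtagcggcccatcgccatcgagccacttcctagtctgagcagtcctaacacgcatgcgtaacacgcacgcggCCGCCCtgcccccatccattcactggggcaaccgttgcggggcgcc

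Gm19299: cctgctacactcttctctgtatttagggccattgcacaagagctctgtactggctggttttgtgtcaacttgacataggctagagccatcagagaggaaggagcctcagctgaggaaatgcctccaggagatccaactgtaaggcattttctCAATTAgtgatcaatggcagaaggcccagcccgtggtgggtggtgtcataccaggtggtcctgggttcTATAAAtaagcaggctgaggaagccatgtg

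Trip4-Csnk1g1: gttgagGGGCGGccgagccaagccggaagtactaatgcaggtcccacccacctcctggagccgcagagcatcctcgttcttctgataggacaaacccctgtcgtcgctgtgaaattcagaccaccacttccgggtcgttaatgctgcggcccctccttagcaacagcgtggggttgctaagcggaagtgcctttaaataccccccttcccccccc

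The Gm19299 window holds a TATAAA that begins 30 bases before the start, and a TAATTG match on the other strand. Of 32851 RefSeq windows of this length, 12.4% hold TATAAA and 7.17% hold TAATTG. It has 1 CpG, against a median of 6 over all windows. The Spesp1 window has 16 CpG and 1 GGGCGG match on the other strand, and the Trip4-Csnk1g1 interval has 12 CpG and 1 GGGCGG match. GGGCGG is in 32.7% of all windows, and CCAAT, which none of the 3 holds, in 33.8%. These matches describe the reference letters only.

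By the floxed contrast, the mean of GcKO and AmcKO minus the mean of WT and MUT, 6 of the 10 genes were higher and 4 lower in the floxed groups. The log2(FPKM + 1) differences ran from 3.39 for Spesp1 to -3.70 for Gm19299. All 10 had an adjusted p under 0.05 in limma, as 0.463% of the tested genes did, which follows from how they were chosen. In 8 of the 10, the 6 floxed libraries and the 6 others did not overlap in FPKM, 5 higher and 3 lower, as in 0.525% of tested genes. Dapk2 and Tex12 did overlap. For these 2 genes the level did not follow the floxed allele library by library.

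**Figure D1:**
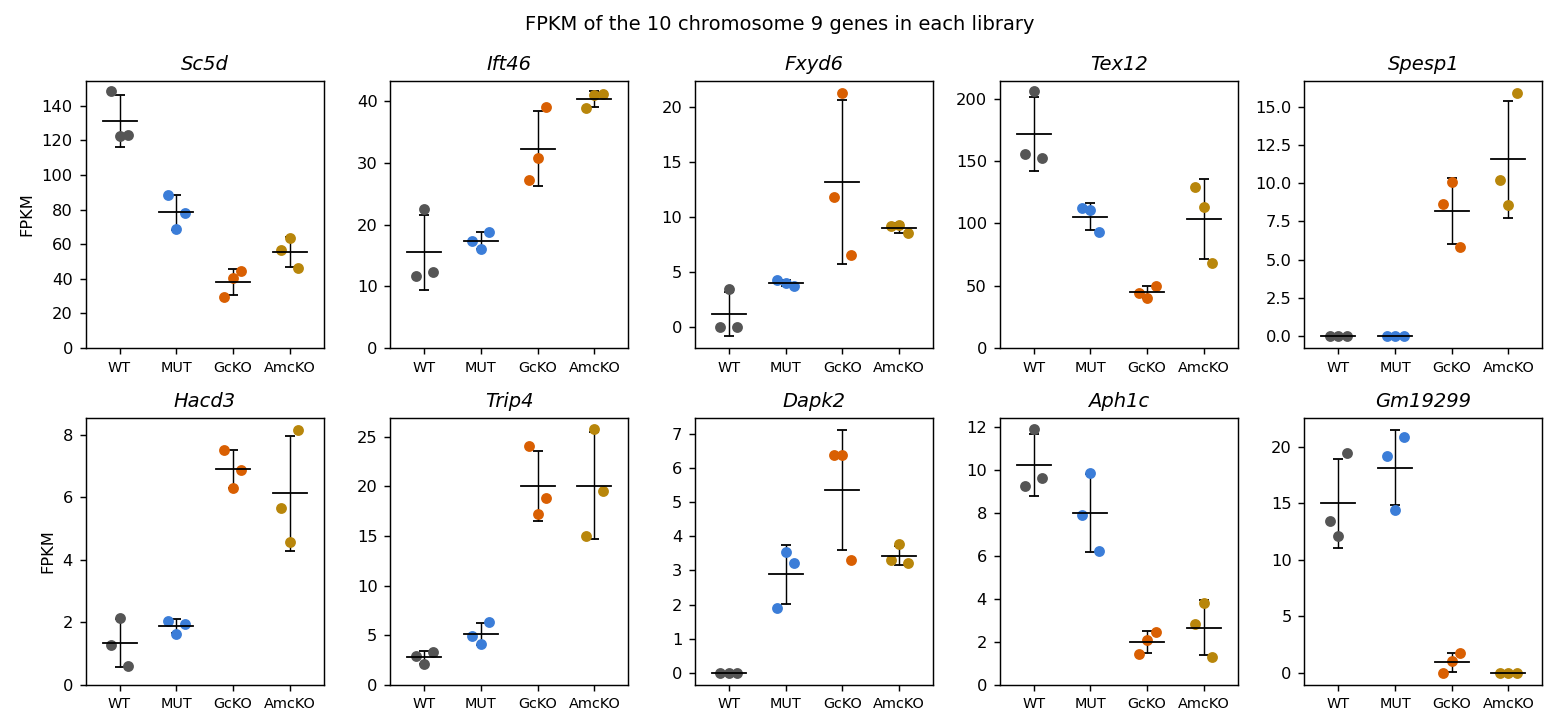
FPKM (y axis, a linear scale of its own for each gene) of the 10 genes in each of 12 libraries, by group, in order along chromosome 9; points are libraries, bars the group mean and SD (n = 3). The 6 floxed libraries lie apart from the 6 others for 8 genes, and Dapk2 and Tex12 overlap.

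Of the genes with roles in gametes, Spesp1 encodes an acrosomal protein of sperm that takes part in fusion with the egg. It lies 17.9 Mb from Dpagt1, at chr9:62270727-62282179. Spesp1 was listed at 0 in all 3 WT and all 3 MUT libraries. It reached 8.66, 10.1 and 5.83 FPKM in GcKO and 10.2, 8.59 and 15.9 FPKM in AmcKO, or 15.7 to 53.2 estimated fragments. Every floxed library was above every other library. Against the level that 3 fragments would give in each library at 0, averaged over the group, Spesp1 was at least 10.1-fold higher in GcKO than in MUT and at least 6.45-fold higher in AmcKO than in WT. Spesp1 and Wfdc1, on chromosome 8, were the 2 tested genes listed at 0 in the 6 libraries without the floxed allele and at 1 FPKM or more in all 6 floxed libraries.

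Tex12 encodes a protein of the central element of the synaptonemal complex, which holds homologous chromosomes together in meiotic prophase. It lies 6.23 Mb from Dpagt1, at chr9:50557146-50561268, within the GENCODE locus of Il18 on the other strand. In the deposited loci, Il18 starts past the end of Tex12, at 6.24 Mb from Dpagt1. Tex12 stood at 156, 206 and 153 FPKM in WT and 112, 111 and 92.9 in MUT. It stood at 44.0, 40.3 and 49.8 FPKM in GcKO and 129, 113 and 67.9 in AmcKO. Only the GcKO libraries were below all others, and AmcKO shared its range with MUT. The reads carry no strand, so reads from the GENCODE overlap cannot be assigned to Tex12 or Il18 by strand. Il18 was at most 2.28 FPKM in the libraries without the floxed allele and listed at 0 in the floxed ones.

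Trip4 encodes the activating signal cointegrator ASC-1, a coactivator of transcription, and lies 21.5 Mb from Dpagt1 at chr9:65828924-65908794. Trip4 stood at 2.88, 2.08 and 3.31 FPKM in WT and 4.93, 4.10 and 6.31 in MUT. It stood at 24.0, 17.2 and 18.8 FPKM in GcKO and 14.98, 25.7 and 19.5 in AmcKO. The lowest floxed library was 2.37 times the highest other library, and the mean over floxed libraries was 5.10 times that over the others. Pclaf lies within the Trip4 locus on the other strand. Its row, under the older symbol 2810417H13Rik, reached 2.04 FPKM at most and was listed at 0 in GcKO, where Trip4 was high.

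Csnk1g1, a casein kinase, starts 215 bases from Trip4 and runs the other way. Csnk1g1 was at 1.13, 0.767 and 0.440 FPKM in WT and 1.25, 1.15 and 1.16 in MUT. It was at 4.08, 4.76 and 4.03 FPKM in GcKO and 4.03, 2.85 and 4.18 in AmcKO. Both genes that leave the printed interval were thus higher in each floxed library than in any other library.

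The pair of genes with roles in lipid synthesis moved in opposite directions. Sc5d, the sterol C5-desaturase of cholesterol synthesis, lies on the other side of Dpagt1, at -2.07 Mb and chr9:42254175-42264300. Sc5d stood at 148, 122 and 123 FPKM in WT and 88.7, 68.7 and 77.8 in MUT. It stood at 29.8, 40.3 and 44.4 FPKM in GcKO and 56.5, 63.4 and 46.1 in AmcKO. The groups did not overlap, though the highest floxed library (63.4 FPKM) was close to the lowest other one (68.7 FPKM).

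Hacd3, a dehydratase of very long chain fatty acid elongation, lies at chr9:64986981-65021717. Hacd3 stood at 1.27, 2.15 and 0.614 FPKM in WT and 2.04, 1.62 and 1.96 in MUT, which is 0.975 to 6.84 estimated fragments. It stood at 7.54, 6.32 and 6.88 FPKM in GcKO and 5.66, 4.58 and 8.17 in AmcKO, which is 11.7 to 28.4 estimated fragments. Hacd3 was higher in each floxed library. Vwa9, whose locus ends where that of Hacd3 begins, had a mean of 8.19 ± 1.65 FPKM (SD, n = 3) in WT and 7.03 ± 1.54 in AmcKO, and its groups overlapped.

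Ift46, a subunit of intraflagellar transport complex B that carries cargo along cilia, lies 0.446 Mb from Dpagt1 at chr9:44773007-44792714. Ift46 stood at 11.7, 22.4 and 12.3 FPKM in WT and 17.3, 16.0 and 18.8 in MUT. It stood at 27.1, 30.8 and 39.0 FPKM in GcKO and 38.9, 41.0 and 41.2 in AmcKO. The floxed libraries were all higher, and WT replicate 5 came nearest to them.

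Fxyd6, a regulator of the sodium pump, lies 1.04 Mb from Dpagt1 at chr9:45370183-45396159. Fxyd6 stood at 3.47 FPKM in WT replicate 5, was listed at 0 in the other 2 WT libraries, and had 4.25, 3.95 and 3.71 FPKM in MUT. It stood at 11.8, 21.3 and 6.56 FPKM in GcKO and 9.18, 9.30 and 8.51 in AmcKO. The 3 GcKO libraries ranged more widely than those of any other group, and all floxed libraries were still above the rest.

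Dapk2, a calmodulin-dependent kinase of the death-associated family, lies at chr9:66158224-66272242. Dapk2 had no signal in any of the 3 WT libraries, which were listed at 0, and stood at 1.91, 3.55 and 3.22 FPKM in MUT. It stood at 6.38, 6.38 and 3.32 FPKM in GcKO and 3.32, 3.77 and 3.23 in AmcKO. MUT and AmcKO overlapped, and WT was the group that stood apart. A floor of 3 fragments in each library bounds no fold against WT for MUT. The MUT mean of 2.89 FPKM is under the 3.08 FPKM that 3 fragments would give in WT. GcKO was at least 1.74-fold higher than WT.

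Aph1c, one of the Aph1 subunits of gamma-secretase, the protease that cleaves Notch and other membrane proteins, lies at chr9:66814992-66834706. Aph1c stood at 9.23, 11.9 and 9.59 FPKM in WT and 7.90, 9.85 and 6.21 in MUT. It stood at 1.44, 2.07 and 2.43 FPKM in GcKO and 2.84, 3.82 and 1.31 in AmcKO. The floxed libraries were all lower. Aph1b is a close copy that lies beside it, with 77.9% identity over the aligned bases of the longest transcripts and 4.49% of the 150-base windows of Aph1c found in it without change. Reads from such windows could be counted for either, so both levels are uncertain to that extent. Aph1b was at 1.16 ± 0.854 FPKM (SD, n = 3) in WT, 1.34 ± 0.188 in MUT, 1.99 ± 0.385 in GcKO and 2.75 ± 0.113 in AmcKO. Even summed, the 2 copies were lower in the floxed groups by their means.

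Gm19299 is annotated as a long intergenic noncoding RNA and lies at chr9:67133559-67163788, the farthest of the 10 from Dpagt1 at 22.8 Mb. Gm19299 stood at 13.4, 12.1 and 19.5 FPKM in WT and 19.2, 14.4 and 20.9 in MUT. It was listed at 0 in GcKO replicate 1 and in all 3 AmcKO libraries, and stood at 1.03 and 1.72 FPKM in the other 2 GcKO libraries, or 2.2 estimated fragments each. Its order was the reverse of that of Spesp1. Against the 3-fragment level averaged over AmcKO, Gm19299 was at least 6.97-fold higher in WT and at least 8.44-fold higher in MUT. It was 1 of 3 tested genes with 1 FPKM or more in all 6 libraries without the floxed allele and 0 in all 3 AmcKO libraries, with Olfr877, also on chromosome 9, and Tnfrsf17. Tnfrsf17 was named after its values were seen.

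The label numbers form 2 sets, 1 to 3 for MUT and GcKO and 4 to 6 for WT and AmcKO. The floxed difference can thus be taken once in each set, with no library in common. The calls and SE given here, though, come from the fit of all 12 libraries, so both sets share an estimate of the spread. All 10 genes had the same sign in GcKO minus MUT and in AmcKO minus WT. Of the 10, 5 were called by limma in GcKO minus MUT, where 0.205% of the tested genes were, and 7 in AmcKO minus WT, where 0.214% were. Spesp1, Trip4, Sc5d and Gm19299 were called in both. Of all tested genes, 5 were called in both sets, these 4 and Myo10 on chromosome 15. These counts describe the same contrast that chose the genes.

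The log2(FPKM + 1) differences of Spesp1 were 3.17 (SE 0.303) in GcKO minus MUT and 3.61 (SE 0.303) in AmcKO minus WT. Those of Trip4 were 1.79 and 2.47 (SE 0.258), those of Sc5d -1.03 and -1.24 (SE 0.189), and those of Gm19299 -3.42 and -3.97 (SE 0.353). For Dapk2 they were 0.69 and 2.15 (SE 0.307). Where a group was listed at 0, the fitted difference takes 0 as its level. With 3 fragments in each library at 0, Spesp1 would be higher by at least 2.34 in GcKO minus MUT and 2.17 in AmcKO minus WT, and Dapk2 by at least 0.12 in AmcKO minus WT, all on the log2 scale of group means.

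**Figure D2:**
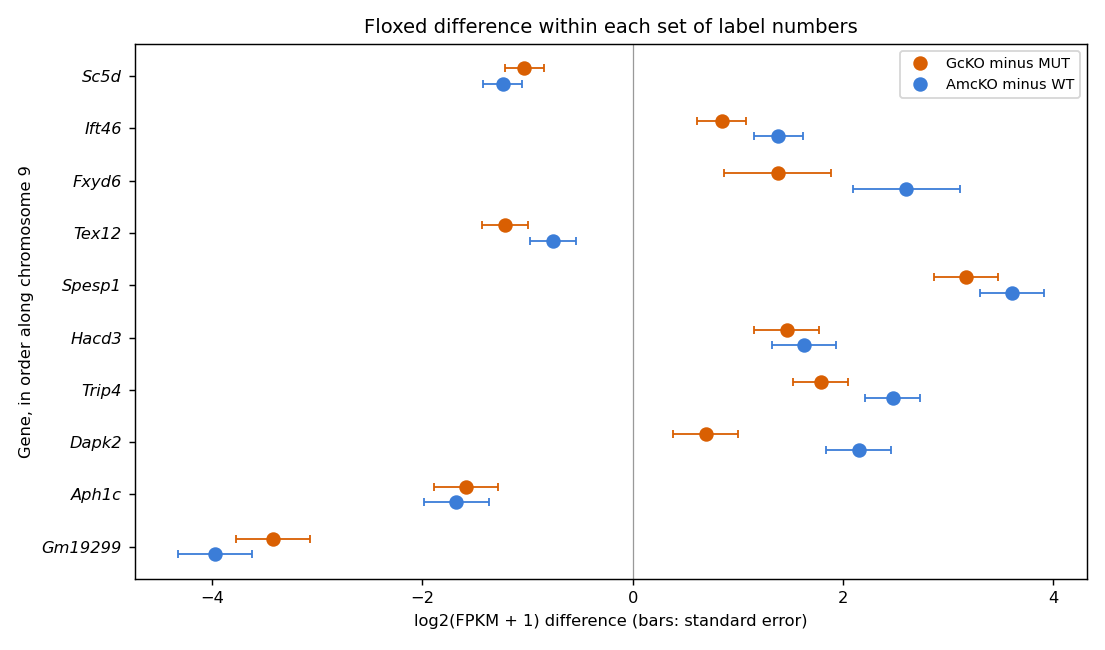
Difference in log2(FPKM + 1) (x axis) of the 10 genes (y axis, in order along chromosome 9) in GcKO minus MUT and in AmcKO minus WT, with bars for the standard error. Each gene lies on the same side of 0 in both, with Spesp1 at 3.17 and 3.61, and the Dapk2 value of 2.15 was taken against WT listed at 0.

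Whether the floxed difference had the same size in both sets was tested as an interaction. With limma and Benjamini-Hochberg adjustment, 0 of the 10 genes were called, and 0.0267% of all tested genes were. Dapk2 was the 1 gene of the 10 with an unadjusted p under 0.05, with an interaction of -1.46 (SE 0.434) and an adjusted p of 0.276 in limma, a value that takes the zeros of WT as a level. A p that misses the threshold does not show equal differences, and the SE of 0.267 to 0.720 leaves room for gaps of that order.

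MUT and WT both lack the floxed allele, so this comparison was not used in the choice. MUT libraries carry the numbers 1 to 3 and WT libraries 4 to 6, so the genotype and the number set cannot be told apart in it. In limma, 4 of the 10 genes were called in MUT minus WT, which is to be read against 20.8% of all tested genes. Dapk2 was higher in MUT by 1.94 on the log2 scale (SE 0.307, limma adjusted p = 0.000749), with WT listed at 0 throughout. It stayed called under all scalings and with any 1 library left out (limma adjusted p 0.000449 to 0.00570). This call takes 0 as the WT level, though. At 3 fragments in each WT library the WT mean of 3.08 FPKM would be above the MUT mean of 2.89. This floor, set for each library by itself, does not bound the direction. Fxyd6 was higher by 1.59 (SE 0.509, limma adjusted p = 0.0399), but 8 of the 12 fits that leave out 1 library lost the call, with limma adjusted p up to 0.135. It too rests on zeros, in 2 of the 3 WT libraries, and with 3 fragments in each of these the MUT mean would be 1.28 times that of WT. In the same comparison 4 of the 8 tested granulosa markers were called by limma. Inha, Gja1 and Hsd17b1 were listed at 0 in all WT libraries and had means of 4.00, 3.30 and 1.93 FPKM in MUT (limma adjusted p 0.00260, 0.000646 and 0.0118), and Esr2 was lower in MUT, at 48.1 against 149 FPKM (limma adjusted p = 0.000176). The calls of Inha, Gja1 and Hsd17b1 also take 0 as the WT level. No 3-fragment level was worked out for these genes, so their direction is not bounded here either. The part of the granulosa markers in the Dapk2 and Fxyd6 differences was not tested.

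Sc5d was lower in MUT by -0.74 (SE 0.189, limma adjusted p = 0.0138) in 3 of 3 libraries, and Tex12 by -0.69 (SE 0.219, limma adjusted p = 0.0388) in 3 of 3 libraries. An equal FPKM total in every library turned both, to 0.25 for Sc5d and 0.30 for Tex12, with neither called. The Sc5d call was lost without MUT replicate 2 or without WT replicate 4 (limma adjusted p 0.0643 and 0.0524), and the Tex12 call without any 1 of the 6 MUT and WT libraries. Trip4 had a difference of 0.70 (SE 0.258, limma adjusted p = 0.0704) and was called under 3 of the alternatives, at 1.47 with the same FPKM sum (limma adjusted p = 0.00141), at 0.87 with a pseudocount of 0.1 (limma adjusted p = 0.0490), and with the filter at a mean of 5 FPKM (limma adjusted p = 0.0427). Spesp1 was listed at 0 in both groups, and for Gm19299, Hacd3, Ift46 and Aph1c the differences ran from -0.33 to 0.34 with SE of 0.233 to 0.353, and none was called. With the same FPKM sum, Gm19299 was higher in MUT by 1.21, Hacd3 by 0.93 and Ift46 by 1.15, all 3 called (limma adjusted p 0.0218, 0.0403 and 0.00194), and Aph1c was at 0.56 and not called. That scaling called 4894 of the 11233 tested genes, 4643 of them higher in MUT, with a median difference of 0.71 over all genes. Nothing is therefore read from these 3 calls or from that of Trip4 under the same scaling.

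GcKO and AmcKO share the floxed allele. They differ in the Cre driver, in whether Cre acts in the oocyte itself, and in the set of label numbers. These cannot be told apart in this comparison. Of the 10 genes, 1 was called in GcKO minus AmcKO, against 5.46% of all tested genes. Tex12 was lower in GcKO by -1.15 (SE 0.219, limma adjusted p = 0.00814), with all 3 GcKO libraries below all 3 AmcKO libraries. The difference was -0.42 when libraries were scaled to the same FPKM sum, and was then not called (limma adjusted p = 0.148). The other 9 differences ran from -0.53 for Sc5d to 0.82 for Gm19299, with SE of 0.189 to 0.509. Spesp1 differed by -0.44 (SE 0.303) and Trip4 by 0.02 (SE 0.258). With the same FPKM sum Spesp1 was at 0.23 and Trip4 at 0.73 (limma adjusted p = 0.0805), and neither was called. Scaled to the same FPKM sum, Dapk2 was called in place of Tex12, at 1.10 (limma adjusted p = 0.0400). That scaling called 2591 of the 11233 tested genes in this comparison, 2463 of them higher in GcKO, with a median difference of 0.55. Nothing is therefore read from the Dapk2 call.

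**Figure D3:**
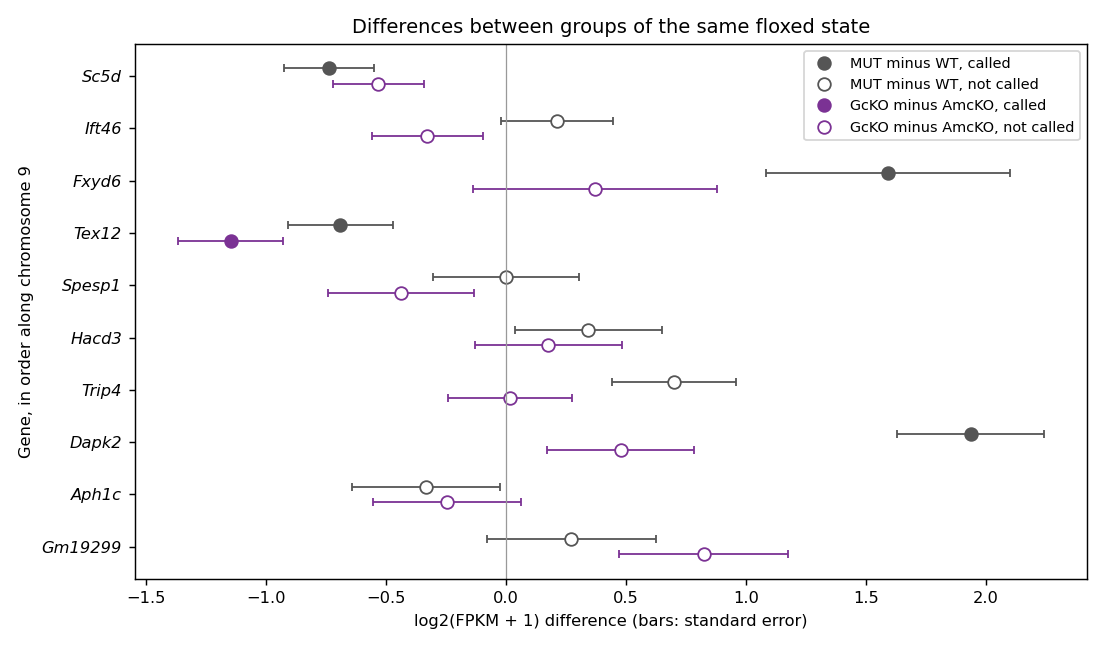
Difference in log2(FPKM + 1) (x axis) of the 10 genes (y axis, in order along chromosome 9) between the 2 groups without the floxed allele and between the 2 groups with it, with bars for the standard error; filled points were called at an adjusted p under 0.05. Dapk2, Fxyd6, Sc5d and Tex12 are filled in MUT minus WT, where Dapk2 is set against WT listed at 0, and Tex12 is filled in GcKO minus AmcKO.

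Order by level differed between the genes. In Trip4, Hacd3, Spesp1, Fxyd6 and Ift46 both floxed means lay above both others, while the GcKO and AmcKO libraries overlapped in Trip4, Hacd3, Spesp1 and Fxyd6 and did so by a hair in Ift46 (39.0 FPKM for the highest GcKO and 38.9 for the lowest AmcKO library). In Sc5d the order of means was WT, MUT, AmcKO and GcKO, with no overlap between neighbours. In Tex12 it was WT, MUT, AmcKO and GcKO, and MUT and AmcKO overlapped.

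Along chromosome 9 the 10 genes stretch from -2.07 Mb to 22.8 Mb from Dpagt1. Of them, 6 lie more than 15 Mb away. The part from Hacd3 to Gm19299 spans 2.15 Mb and holds 26 tested genes. Of these, 6 were called, 4 higher and 2 lower, namely 5 of the 10 genes and Csnk1g1. The 20 others in that stretch had a median absolute log2 difference of 0.30, beside 0.21 over all tested genes. Genes that were called and genes that were not were interleaved.

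Within 25 Mb of the Dpagt1 start, 17 of 279 tested genes were called by the floxed contrast (6.09%), 8 higher and 9 lower. Without the 10 genes it was 7 of 269 (2.60%). On the rest of chromosome 9 it was 1 of 347 (0.288%), Grm2 at 62.3 Mb, and on the other chromosomes 34 of 10607 (0.321%). The other chromosomes ranged from 0 to 1.21%, the highest being X with 5 called genes. The window of 25 Mb and the genes were chosen with these results known, so the shares are given without a test. Besides Grm2, calls fell in the bins of 10 Mb from 10 Mb on one side of Dpagt1 to 30 Mb on the other, with 3 of 47, 5 of 58, 3 of 78 and 6 of 63 genes called in order. Of the genes within 25 Mb that were not among the 10, 19.7% had an unadjusted p under 0.05, against 11.0% on the rest of chromosome 9 and 8.20 to 14.0% on the other chromosomes.

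**Figure D4:**
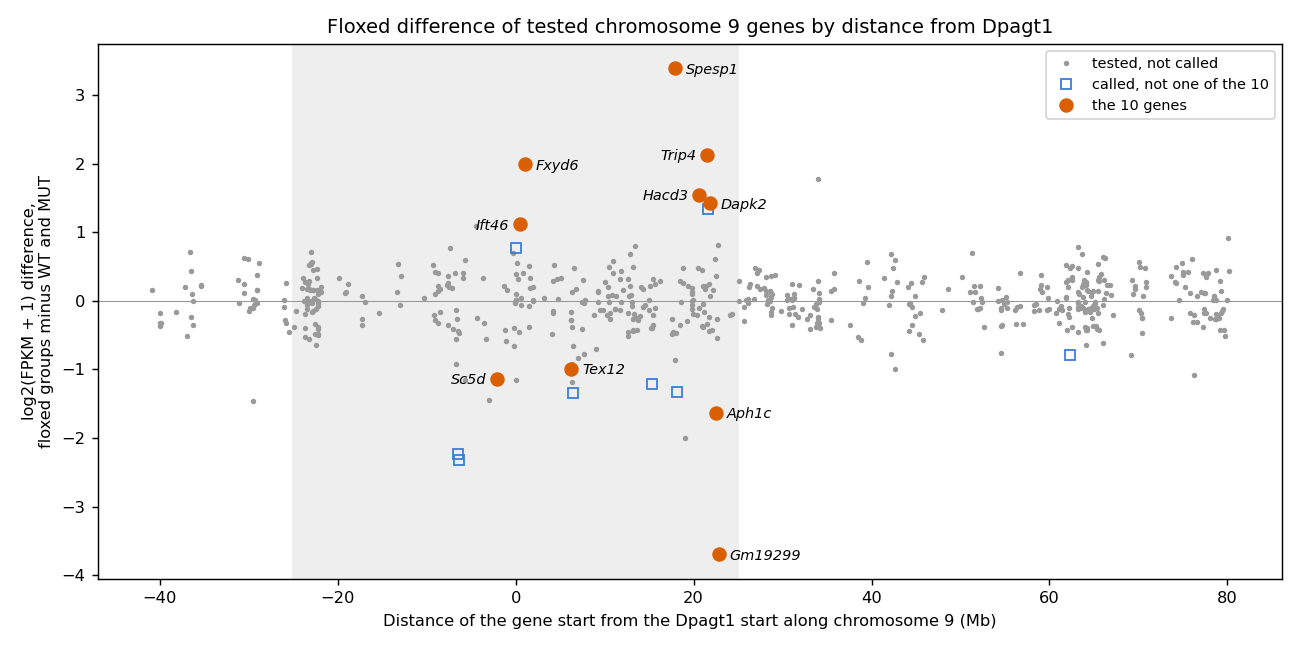
Floxed difference in log2(FPKM + 1) (y axis) of the 626 tested chromosome 9 genes by the distance of their start from the Dpagt1 start in Mb (x axis); the shaded band is 25 Mb either side, filled circles are the 10 genes and open squares are other called genes. Called genes lie in or beside the band from -6.47 to 22.8 Mb, with Grm2 at 62.3 Mb the exception.

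The same window did not stand out in the comparisons that the choice did not use. In MUT minus WT, 22.9% of its 279 genes were called, beside 20.8% of all tested genes. In GcKO minus AmcKO it was 4.30%, beside 5.46%.

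**Figure D5:**
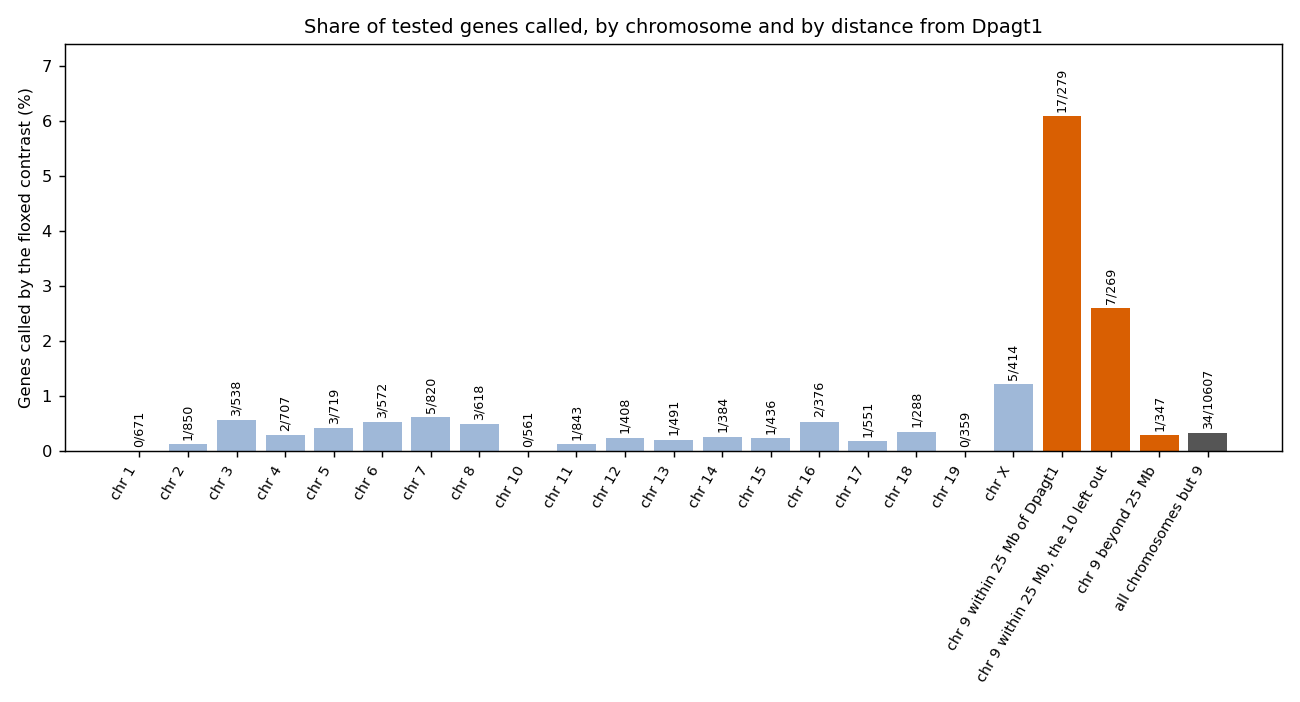
Percentage of tested genes called by the floxed contrast (y axis) on each chromosome but 9, in parts of chromosome 9, and on all chromosomes but 9 (x axis); numbers above bars are called over tested genes. The window within 25 Mb of Dpagt1 stands at 6.09%, or 2.60% without the 10 genes, and the next highest bar is X at 1.21%.

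Of the 7 other called genes in the window, Olfr877 and Csnk1g1 had no overlap between the floxed and the other libraries. Olfr877, an olfactory receptor gene at -6.47 Mb from Dpagt1, on the side of Sc5d, was at 11.7, 2.65 and 6.78 FPKM in WT and 3.26, 3.08 and 2.46 in MUT. It was at 0.966 FPKM in GcKO replicate 1 and listed at 0 in the other 5 floxed libraries. The other 5 called genes, Olfr878, Trappc4, Alg9, Pkm and Coro2b, overlapped between floxed and other libraries and were named after their values were seen. Trappc4, a subunit of a vesicle tethering complex 0.0769 Mb from Dpagt1, was higher by 0.77 (SE 0.134), and the other 4 were lower by the floxed contrast.

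Away from chromosome 9, 13 of 10607 tested genes (0.123%) were called and had floxed libraries that did not overlap the others. The 5 with the largest differences were Myo10 at -2.58 (SE 0.234), Haus8 at -2.14 (SE 0.336), Ramp2 at 1.71 (SE 0.255), Xlr3c at -1.24 (SE 0.134) and Wfdc1 at 1.20 (SE 0.182). A pattern that separates the floxed libraries was therefore not limited to chromosome 9. Within 25 Mb of Dpagt1, called genes without overlap were 10 of 279 (3.58%), or 2 of 269 (0.743%) without the 10 genes. Myo10, an unconventional myosin, fell from 10.7 ± 3.43 FPKM (SD, n = 3) in WT and 10.4 ± 0.689 in MUT to 0.800 ± 0.236 in GcKO and 1.15 ± 0.774 in AmcKO.

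Over the 12 libraries the genes most like the mean profile of the 10, each standardized and turned to be positive in the floxed groups, were Csnk1g1 (Pearson r = 0.967), Wfdc1 (0.953), Ramp2 (0.931), Svopl (0.919) and Mxra8 (0.915). The libraries fall into the 2 floxed states, so these values describe that split and carry no p.

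Partners of the 10 genes in complexes and pathways were listed as well. With limma, 0 of the 57 that were tested were called by the floxed contrast, and 7 had an unadjusted p under 0.05. Over all tested genes these shares were 0.463% and 11.4%, so the counts are near those of any genes and nothing is read from them. Trip4 works in a complex with Ascc1, Ascc2 and Ascc3, whose floxed log2 differences were -0.23, 0.04 and 0.29 (SE 0.174 to 0.244) beside 2.13 for Trip4. Tex12 pairs with Syce2 in the synaptonemal complex, and Syce2 had a floxed difference of -0.17 (SE 0.119). Mean levels of Syce2 were 1058 FPKM in WT, 602 in MUT, 561 in GcKO and 911 in AmcKO.

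Among 17 other genes of cholesterol synthesis, 3 had an unadjusted p under 0.05 and the median difference was 0.12, beside -1.13 for Sc5d and 0.02 over all genes. These 3, Acat2, Lbr and Msmo1, were lower in the floxed groups, at -0.77, -0.26 and -0.62, and none was called. The 11 other tested genes of intraflagellar transport complex B had a median of 0.13, and 1 had an unadjusted p under 0.05. The 5 other gamma-secretase genes had a median of 0.16, Aph1b included at 0.61 (SE 0.226, limma adjusted p = 0.328). The 8 other genes of very long chain fatty acid elongation had a median of -0.10, the 6 of the sodium pump and FXYD list 0.01, the 5 of the synaptonemal complex -0.07 and Dapk3, the kinase related to Dapk2, 0.33 (SE 0.317). Of 10 other sperm acrosome and fusion genes in the table, Zpbp2 alone passed the filter, at a floxed difference of -0.28 (SE 0.479).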

How the data were processed

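The 12 oocyte libraries were amplified by Smart-seq2, which keeps no strand. Paired reads of 150 nt were trimmed and aligned to mm10 with TopHat2 2.0.13, and the authors deposited FPKM values from Cufflinks 2.2.1, 1 column per library. The gene annotation is not given in the sources used here. The deposited table also holds 18 columns of the authors' group comparisons (Cuffdiff p-values, q-values and log2 ratios), which were not used.

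Groups came from the labels. FPKM were tested with limma 3.58.1 (R 4.3.3) after log2(FPKM + 1), letting the variance follow abundance, for the 11233 genes that reached 1 FPKM somewhere, in 1 fit of 4 groups with 8 residual degrees of freedom. Calls were made where p, adjusted by Benjamini-Hochberg over all genes tested, was under 0.05. A fold on this scale understates the change of low genes. The study's own test needs reads and could not be used. The members, the gene lists, the window of 25 Mb and the rules for named genes were chosen with earlier results of these data known. Named genes besides the 10 were Dpagt1, called genes without overlap near Dpagt1 (up to 10) and elsewhere (5 by size), the 5 most like profiles, the listed partners, overlapping genes and Aph1b.

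The value of 1 fragment was estimated from steps between low values of transcripts of at least 1.5 kb, with a floor of 3 fragments, which covers counting error only. Gene loci are those of the deposited table, biotypes and overlaps those of GENCODE on GRCm38, and windows before starts those of RefSeq, found for all 10 genes. Python 3.11.15 with pandas 2.3.3, numpy 2.4.6 and biopython 1.88 was used for tables and alignment. The fit was tested on simulated data. The alternatives were a pseudocount of 0.1, no filter, a filter at a mean of 5 FPKM, quantile, median-of-ratios and same-sum scaling, limma without trend, a fold change over 2, the label number as a block, each number set or pair of groups alone, and each library left out.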

Additional observations from a re-analysis of the deposited data

How the results depend on the processing

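The floxed contrast called 52 genes, 19 higher and 33 lower, 17 of them within 25 Mb of Dpagt1. Across the fits that left out 1 library these counts ran from 39 to 70 and from 12 to 19. With the same FPKM sum 80 were called, 46 higher and 34 lower, and 33 passed a fold change over 2. Quantile normalization gave 30 higher and 37 lower. The same-sum scaling moved the median difference of all genes from 0.12 to 0.71 in MUT minus WT and from 0.04 to 0.55 in GcKO minus AmcKO. Within label numbers 1 to 3 alone, GcKO against MUT, 26 genes were called, 6 within 25 Mb and 5 among the 10 genes. Within numbers 4 to 6 alone, AmcKO against WT, 8 genes were called, 3 within 25 Mb and 3 among the 10 genes. With the label number as a block, 25 genes were called, 11 of them within 25 Mb and 8 of them among the 10 genes. Same-numbered libraries deviated from their group means with correlations of -0.041 to 0.041, and not every library correlated best with its own. Deviations from group means cannot show a shift common to a whole number set. The FPKM totals did differ between the number sets. The 10 genes kept their sign in the floxed contrast under each of these settings, and the call of Fxyd6 was lost in 10 of 12 fits without 1 library. With a pseudocount of 0.1 the differences of 6 of them grew by over 1 SD.

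Of the 10 genes, the number called in MUT minus WT was 4, and 2 with no filter, 1 with quantile normalization, 2 in limma without trend, 2 past a fold change over 2, 5 with a pseudocount of 0.1, 6 with the same FPKM sum (Dapk2, Fxyd6, Gm19299, Hacd3, Ift46 and Trip4), and 1 to 4 without 1 library. Of the 11233 tested genes, 2332 were called in MUT minus WT in the main fit and 1473 with quantile normalization. With the same FPKM sum 4894 were called, 94.9% of them higher in MUT. Such totals are not given here for the other settings, and nothing is read from these member counts. In GcKO minus AmcKO, 1 of the 10 genes was called in each fit without 1 library and 0 with only the 2 groups compared. The interaction called 0 under each setting tried. With the same FPKM sum the sign turned in MUT minus WT for Sc5d (0.25), Aph1c (0.56) and Tex12 (0.30), and in GcKO minus AmcKO for Spesp1 (0.23), Sc5d (0.20), Ift46 (0.40) and Aph1c (0.28). In GcKO minus AmcKO, near 0, Trip4 turned to -0.12 without GcKO replicate 1 and to -0.17 without AmcKO replicate 4, and Fxyd6 ranged from -0.024 without GcKO replicate 2 to 0.76 without GcKO replicate 3. The cause of these changes was not tested. Depth limits Dapk2, Fxyd6, Hacd3 and Gm19299 most, which rest on a few fragments in some groups.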
